A study of Homo sapiens with 4 samples.

Results

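The junctions described here are exon-exon joins in RNA sequencing reads whose intron ends carried none of the standard base pairs. The aligner gives each junction a motif code, and code 0 means that the first and last bases of the skipped stretch are not GT-AG, GC-AG or AT-AC on either strand of hg19. Members were the code 0 junctions outside the mitochondrial genome with at least 20 uniquely mapped reads summed over the 4 libraries. There were 451 of them among 225203 junctions of every motif with that many reads, next to 220513 with GT-AG, 3977 with GC-AG and 262 with AT-AC. Members were thus chosen by motif and summed reads, and neither is a finding. Just inside the minimum, 13 members had exactly 20 reads and 17 had 21, and just outside it 13 code 0 junctions had 19 reads and 14 had 18.

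The study transfected HEK293T, a line of human embryonic kidney cells, with plasmids for SF3B1 carrying R625H, K666T or K700E, or for the wild-type protein (WT). The labels give 1000 ng of plasmid for R625H and for K666T, 2000 ng for K700E and no amount for WT, so the amount and the substitution cannot be told apart in K700E. The cells keep their own SF3B1 gene in all 4 groups, and SF3B1 stood at 517, 521 and 512 CPM (gene reads scaled to a common library total) in R625H, K666T and K700E and at 506 CPM in WT. Each group was 1 library, so no difference below has a replicate check, and every test compares libraries, not conditions. Intervals cover counting error only.

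The libraries held 65923981, 68600794 and 71040517 unique junction reads outside the mitochondrial genome in R625H, K666T and K700E and 71959050 in WT. Of 4 genes used as marks of HEK293T, LIN28B, NEFM and VIM stood at 152 CPM or more in each library, and PAX2 between 1.75 and 2.65 CPM. PTPRC, ALB, HBB and MLANA, marks of other cells, stood at or under 0.422 CPM, with HBB at 0 in R625H and K700E and MLANA at 0 in all but R625H.

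Most human introns are removed by the major spliceosome, which reads GT at the intron's start and AG at its end. A rarer machine, the minor or U12-type spliceosome, reads a longer start such as ATATCC or GTATCC. SF3B1 belongs to the SF3b complex, which holds the branch point of introns in both machines. One intron, in XBP1, uses neither: the endoplasmic reticulum stress sensor IRE1 cuts it out of the cytoplasmic mRNA, and a tRNA ligase joins the ends. An aligner also writes a skipped stretch as a junction where the genome and the RNA differ by a short deletion, or where a cDNA lost a stretch between repeats.

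Sequence was read from GENCODE 29 transcripts (GRCh38), matched to the hg19 junctions by intron and exon lengths, and is given in the sense of the gene. Both ends were covered for 218 members. As a check, the end bases matched the motif code for 18181 of 18185 canonical junctions handled in the same way. For 2 of the 218 members, in PSRC1 and LIN37, the GRCh38 transcripts showed GT-AG, although code 0 was given on hg19.

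The XBP1 intron, 26 nt at chr22:29192110-29192135 on the minus strand within the coding sequence, is shown because it is the one member known to be removed without a spliceosome. Capitals mark the intron as the aligner placed it. Its ends share a repeat of 6 nt, so the join can slide along it without changing the joined sequence. The reads therefore do not fix the exact cut sites.
XBP1: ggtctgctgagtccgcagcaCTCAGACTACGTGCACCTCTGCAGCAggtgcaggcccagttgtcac

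Introns annotated in GENCODE 29 made up 104 members, and sequence at both ends was covered for 23 of these. Of the 104, 4 were matched to an intron that has another length in GRCh38. Of the 22 with at least 5 covered intron bases, 4 began with ATATC and 1 with GTATC, searched on the sense strand at the intron's first base. Among canonical junctions 27 of 18185 (0.148%) began with ATATC and 204 (1.12%) with GTATC. A canonical junction can begin with AT only as AT-AC, and code 0 leaves out GT-AG. The shares that begin with ATATC therefore differ in part by the rule itself, and how much was not tested. The starts are shown because they carry these letters, in capitals, after the last exon bases. USP21, a deubiquitinase, was matched at chr1:161134403-161134624 on the plus strand. DDB1, a subunit of an E3 ubiquitin ligase, lay at chr11:61068409-61069728, MEX3D at chr19:1555389-1555575 and ELOF1, a transcription elongation factor, at chr19:11664631-11664825, all on the minus strand. ACTR10, a dynactin subunit, lay at chr14:58678118-58680348 on the plus strand.
USP21: tcctcgtgctccATATCctaatcttcag
DDB1: cgagcactccttATATCcttcccagagc
MEX3D: cccaggccattcATATCttttcctagag
ELOF1: cgcccataacgtGTATCcttggaaacct
ACTR10: ttacccATATCt

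Some other annotated introns differed from GT-AG at one end only, while DMPK (CT-TG), ATP5F1B (GC-CT) and GMFB (AT-AA) departed at both. The ends of the DMPK intron share a repeat of 17 nt, so its end bases depend on where the join is placed. The start read GG in IDH3B (chr20:2639169-2639404, minus strand) and ZNF300 (chr5:150276536-150277623, minus strand), and TT in DDX46 (chr5:134152297-134153185, plus strand), with AG at the end in all 3. The end read TG after a GT start in 4 introns, of which CNBP held 2 that begin at the same base (chr3:128890124-128890288 and chr3:128890127-128890288, minus strand). Capitals mark the first or last bases of the intron that depart from GT or AG.
IDH3B: tgcagactaaagGGagctagagcccttt
ZNF300: atgggagacaagGGaagtgaaatatcaa
DDX46: gagtctcaggtaTTaagtaatttgttcc
CNBP, 165 nt intron: cttttccttattgtTGaagcctgctata
CNBP, 162 nt intron: tttcttttccttatTGttgaagcctgct

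A further kind of member skipped a stretch inside a coding exon, between copies of a short repeat. The 4 below, chosen after their values were seen, are shown because libraries differed in their reads, as described further on. Capitals mark the copies. Skipping the member's length removes 1 copy and leaves the other, and the join can slide along the repeat without changing the joined sequence. CALR (chr19:13054627-13054656, plus strand) skipped 30 nt with a repeat of 10 nt. EEF1A1 (chr6:74227850-74227880, minus strand) skipped 31 nt with a repeat of 5 nt. POGK (chr1:166818971-166819024, plus strand) skipped 54 nt with a repeat of 8 nt, and CD320 (chr19:8367743-8367796, minus strand) skipped 54 nt with a repeat of 41 nt.
CALR: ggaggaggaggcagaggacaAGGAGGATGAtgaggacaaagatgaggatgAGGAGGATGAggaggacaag
EEF1A1: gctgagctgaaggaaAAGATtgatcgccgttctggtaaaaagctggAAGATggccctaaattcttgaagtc
POGK: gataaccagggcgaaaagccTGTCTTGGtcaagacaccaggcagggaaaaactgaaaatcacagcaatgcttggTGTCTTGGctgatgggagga
CD320: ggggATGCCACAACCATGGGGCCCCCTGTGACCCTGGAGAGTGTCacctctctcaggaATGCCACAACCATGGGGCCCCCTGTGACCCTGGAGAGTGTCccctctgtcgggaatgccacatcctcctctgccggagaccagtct

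The 451 members fell into 4 classes by this matching. Annotated introns numbered 104, with a median length of 888 nt and a median of 256.5 reads. Skips of up to 20 nt, called gaps here, numbered 34, with a median length of 2 nt and 77 reads. Longer skips within 1 gene that GENCODE 29 does not annotate numbered 247, with a median length of 83 nt and 42 reads. The deposited files themselves flag 450 of the 451 members as annotated, these included. What that flag rests on, an annotation or junctions added during alignment, is not known here, so unannotated means absent from GENCODE 29 only, and junctions added in 1 library's alignment alone could also bear on which libraries list a member, which was not tested. The other 66 lay outside matched genes or joined different genes, had a median length of 1717.5 nt and reached 897339 nt. Gene names for the 34 members overlapped by a matched gene on the other strand are uncertain, because code 0 junctions carry no strand in the files.

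Classes differed in how many libraries listed their members. A junction missing from a library's file is called not listed, since the sources do not say whether the files hold every junction with a read. Of annotated introns, 103 of 104 were listed in all 4 libraries, and of gaps 29 of 34. Of unannotated skips within 1 gene, 81 of 247 were listed in all 4 and 48 in 1 library only. Of the remaining class, 27 of 66 were listed in all 4 and 13 in 1 only. By library, 99, 90 and 116 members were not listed in R625H, K666T and K700E and 85 in WT. Members and canonical junctions of like depth differed here. At 20 to under 100 reads, 40.7% of 307 members were listed in all 4, against 84.1% of 88568 canonical junctions. At 100 reads or more it was 79.9% of 144 members, against 97.7% of 136184 canonical junctions. At any depth from 20 reads, 53.2% of members were listed in all 4, against 92.3% of canonical junctions. By motif it was 47.9% of GC-AG and 71.4% of AT-AC junctions.

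**Figure D1:**
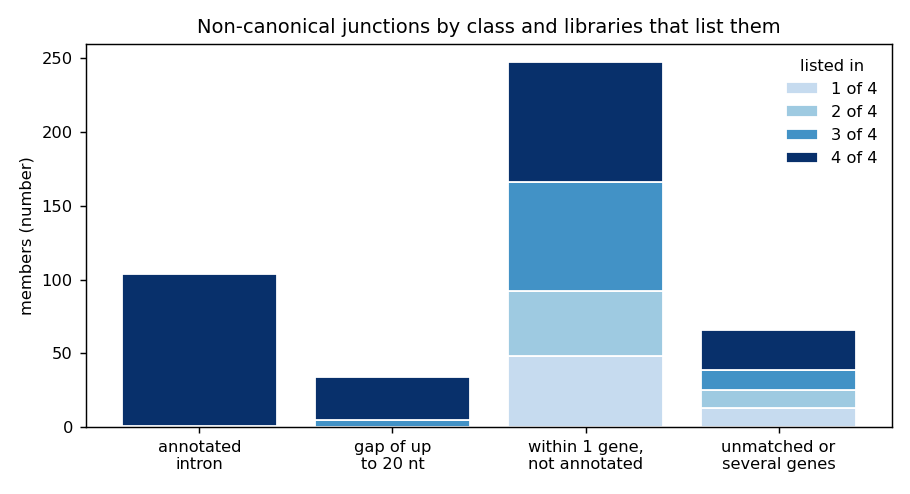
Number of members in each of 4 classes (bars), divided by how many of the 4 libraries list them (shades, 1 to 4). Annotated introns are nearly all dark, 103 of 104 in all 4 libraries, while 166 of 247 unannotated skips within 1 gene were missing from at least 1.

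Repeats at the ends were longer in unannotated skips than in canonical junctions. The repeat shared by both ends had a median of 5 nt in the 179 with sequence, against 2 nt in 18185 canonical junctions. It was at least 4 nt in 131 of 179 members (73.18%), against 19.714% of canonical junctions, and at least 8 nt in 42 (23.46%), against 0.594%. Annotated intron members had a median of 2 nt. Gaps shared the trait in part: of 16 with sequence, 50% had a repeat of at least 4 nt and 31.25% of at least 8 nt. Code 0 itself leaves out GT-AG ends, so the base composition at the ends also differs by the rule, and the part of this in the repeat lengths was not tested.

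**Figure D2:**
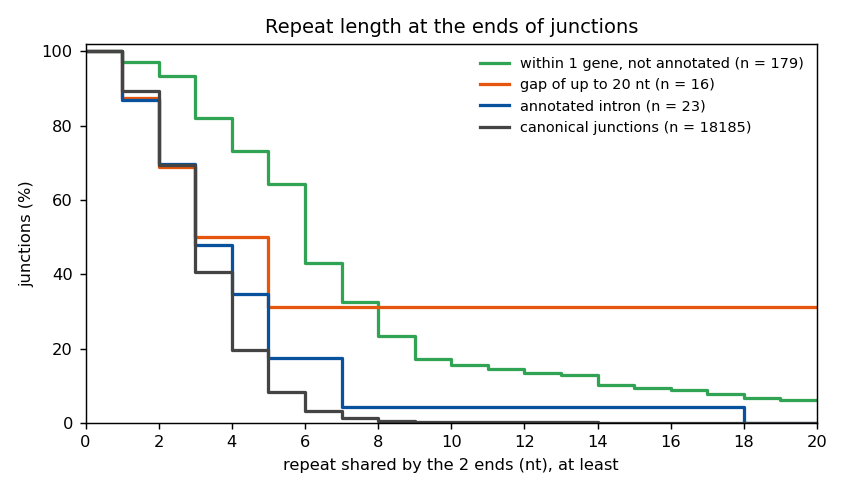
Percentage of junctions (y axis) whose ends share a repeat of at least the length on the x axis (nt). Unannotated skips within 1 gene lie above canonical junctions at each length from 1 nt, with 73.18% against 19.714% at 4 nt, and 31.25% of gaps share at least 8 nt.

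Within single coding exons, 46 members skipped more than 20 nt. Their length was a multiple of 3 in 28, and left a remainder of 1 in 11 and of 2 in 7. Of 11 gaps within single coding exons, none had a length that was a multiple of 3. For 15 of 169 unannotated skips with 20 nt of sequence on both sides, the joined 40 bases also stood in a transcript of the same gene. Among them were CD320 and AKAP1, whose ends share repeats of 41 and 51 nt. Where the repeat is 20 nt or longer, the joined bases equal the unskipped sequence. Such a match was therefore fixed in advance and does not show a transcript with the skip.

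The most read annotated introns came close to equal levels in all libraries. PCBP2, which encodes a poly(C)-binding protein, had 2530, 2708 and 2449 unique reads on its intron at chr12:53854928-53856264 in R625H, K666T and K700E and 2792 in WT. The longer GNAS intron, in the gene of a stimulatory G protein subunit (chr20:57470740-57478582), had 2154, 2161 and 2321 reads in R625H, K666T and K700E and 2600 in WT. A shorter GNAS intron (chr20:57474041-57478582) had 587, 656, 660 and 674 reads in R625H, K666T, K700E and WT. Relative to the library's junction reads, these 3 introns lay within 0.872 to 1.02 times WT in each mutant library.

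CNBP, a nucleic acid-binding protein, had 1309, 1407 and 1298 reads on its 165 nt intron with a TG end in R625H, K666T and K700E and 1264 in WT. SRRT, an RNA-processing factor (chr7:100485481-100485662), had 1152, 1233 and 1153 reads in the mutant libraries and 1263 in WT. IK, a spliceosome component (chr5:140039420-140039699), had 1093, 1217 and 1104 reads in the mutant libraries and 1136 in WT. None of the 3 reached a 2-fold difference in any pair of libraries. The ratio farthest from 1 was that of CNBP in K666T, 1.17 times WT (95% interval 1.08 to 1.26, adjusted p = 0.00106, two-sided Fisher's exact test).

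SMC3, a cohesin subunit (chr10:112356309-112357896), had 809, 860 and 931 reads in R625H, K666T and K700E and 883 in WT. FBXO9, an F-box protein (chr6:52938438-52941283), had 693, 726 and 670 reads in the mutant libraries and 730 in WT. ACTR10, whose intron begins ATATC, had 533, 547 and 504 reads in the mutant libraries and 610 in WT. For these 3 introns, the mutant libraries lay between 0.837 and 1.07 times WT.

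CUL4B, a scaffold of ubiquitin ligases (chrX:119680472-119680990), had 498, 516 and 441 reads in R625H, K666T and K700E and 527 in WT. DDX46, an RNA helicase that acts with the U2 snRNP, had 398, 465 and 442 reads on its TT-AG intron in the mutant libraries and 434 in WT. Of the 68 annotated introns with at least 100 reads and listed everywhere, 65, 61 and 57 lay within 0.5 log2 units of WT in R625H, K666T and K700E. Their median log2 ratio was 0.0, 0.01 and -0.04. The log2 ratios ranged from -0.62 to 0.75 in R625H, from -0.8 to 0.93 in K666T and from -1.06 to 1.17 in K700E.

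**Figure D3:**
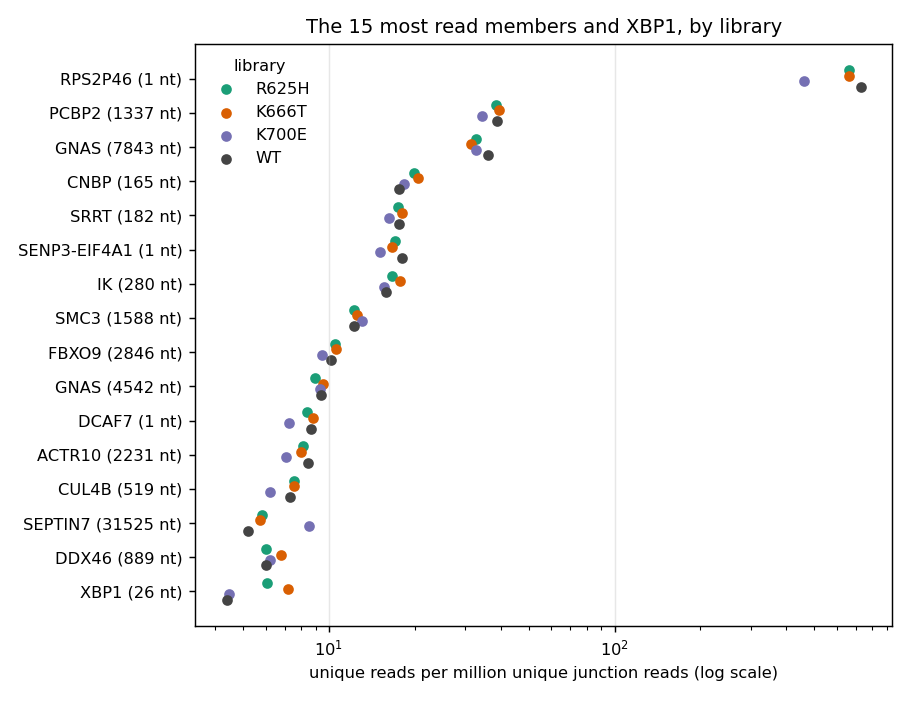
Unique reads as RPM, scaled to a common total of junction reads (x axis, log scale), for the 15 most read members and the XBP1 intron, 1 point per library and no replicates. The 4 points of each member lie close together, except for RPS2P46, SEPTIN7 and XBP1.

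The other introns shown above for their sequence had fewer reads. USP21, with the ATATC start, had 201, 177 and 152 reads in R625H, K666T and K700E and 219 in WT. Its ratio in K700E was 0.703 (95% interval 0.568 to 0.869, adjusted p = 0.00527, Fisher's exact test). MEX3D had 13, 22 and 11 reads in the mutant libraries and 22 in WT, and DDB1 had 5, 6 and 7 reads in the mutant libraries and 5 in WT. ZNF300, with the GG start, had 39, 36 and 60 reads in the mutant libraries and 42 in WT. LIN37, whose ends read GT-AG in GRCh38, had 173, 197 and 211 reads in the mutant libraries and 157 in WT. The annotated intron that was not listed everywhere, 45 nt in the kinase gene DMPK, had 41 and 32 reads in R625H and K700E and was listed in neither K666T nor WT. DMPK, LIN37, SERBP1 and ANKRD19P were named after their values were seen.

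SEPTIN7, a septin of the cytoskeleton, was the most read unannotated skip, 31525 nt at chr7:35840883-35872407 with 1 end in an exon and a canonical junction within 10 nt at both ends. It had 384, 394 and 606 reads in R625H, K666T and K700E and 375 in WT, so that K700E stood above the others. Its ratio in K700E was 1.64 times WT (95% interval 1.44 to 1.87, adjusted p = 7.62e-13, two-sided Fisher's exact test), short of the 2-fold needed for a call. Of its reads and those of the neighbouring canonical junction together, it took 28.94% in K700E, against 19.62% in WT.

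The XBP1 intron had 400, 493 and 317 unique reads in R625H, K666T and K700E and 316 in WT. R625H and K666T were above WT, and K700E was level with it. By reads relative to the library's junction reads, the ratio was 1.38 in R625H (95% interval 1.19 to 1.61, adjusted p = 0.000337) and 1.64 in K666T (1.42 to 1.89, adjusted p = 2.66e-10), by Fisher's exact test. In K700E it was 1.02 (0.867 to 1.19, adjusted p = 0.959, Fisher's exact test). None reached 2-fold. XBP1 gene reads were 187, 214 and 177 CPM in R625H, K666T and K700E and 150 CPM in WT, above WT in K700E too, where the intron was level. Against the most read canonical junction within 1000 nt, which had 1371, 1654 and 1249 reads in the mutant libraries and 1236 in WT, the intron took 22.59, 22.96 and 20.24% of the pair's reads and 20.36% in WT. The log2 odds ratios were 0.19, 0.22 and -0.01, with adjusted p = 0.654, 0.437 and 1.0 (Fisher's exact test), so a difference relative to the neighbour was not detectable at this depth.

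Genes around this intron were described from lists chosen with earlier results of these data known. Over all 19847 genes with at least 40 reads, 1.07, 1.12 and 2.47% differed at least 2-fold from WT in R625H, K666T and K700E. None of the 8 genes of a list of XBP1 itself, IRE1 and the tRNA ligase complex did, and their median log2 ratios were 0.1, 0.06 and 0.1. XBP1 was the highest of the 8 in each mutant library, at 0.32, 0.51 and 0.24. ERN1, which encodes IRE1, stood at 26.3, 26.9 and 25.2 CPM in the mutant libraries and 25.1 CPM in WT. RTCB, the catalytic ligase subunit, stood at 192, 185 and 180 CPM in the mutant libraries and 179 CPM in WT. None of the 12 targets of spliced XBP1 differed 2-fold either, with medians of 0.09, 0.12 and 0.12 beside medians of 0.0, 0.01 and 0.02 over all genes tested. HSPA5, the main chaperone of the endoplasmic reticulum, had log2 ratios of 0.27, 0.32 and 0.24, and SDF2L1, a chaperone partner, had -0.01, -0.16 and -0.69.

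Gaps of up to 20 nt held 187548 of the 300989 reads on members, most of them on a single base. That base lies in RPS2P46, a processed pseudogene of the ribosomal protein gene RPS2, at chr17:19349904-19349904 on the minus strand. It is shown with its flanks, the skipped base in capitals.
RPS2P46: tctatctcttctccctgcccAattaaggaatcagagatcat

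The RPS2P46 gap had 43778, 45562 and 32697 unique reads in R625H, K666T and K700E and 52392 in WT, 58.0% of all reads on members. All mutant libraries were below WT, and K700E was lowest. Ratios to WT were 0.912 in R625H and in K666T (95% interval 0.901 to 0.924 in each) and 0.632 in K700E (0.623 to 0.641). Adjusted p was 1.5e-43, 2.26e-44 and at most 8.31e-298 (Fisher's exact test), the last a bound because smaller p-values were not resolved. Gene reads of RPS2P46 were 44805, 46241 and 33038 in the mutant libraries and 53236 in WT, close to the reads on the gap. RPS2 gene reads were 224689, 221935 and 161717 in the mutant libraries and 268358 in WT. The 2 are separate counts, and set against RPS2 gene reads the gap's reads came to a ratio of 19.5, 20.5 and 20.2% in R625H, K666T and K700E and 19.5% in WT. With the base left out, the 40 flanking bases stood unbroken in 4 other GENCODE genes, with RPS2P5 among them but not RPS2. Reads of such near-identical copies cannot be assigned with certainty, and the gap's level is uncertain for that reason.

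The next most read gap, of 1 nt in SENP3-EIF4A1 (chr17:7470286-7470286), lay in a read-through of the genes for a SUMO protease and a translation initiation helicase. It had 1119, 1138 and 1072 reads in R625H, K666T and K700E and 1302 in WT. DCAF7, a WD-repeat protein, had a 1 nt gap (chr17:61660890-61660890) with 554, 605 and 513 reads in the mutant libraries and 624 in WT. Both bases lie in a coding exon where hg19 is 1 nt longer between the matched introns than GRCh38. Such a length difference, equal to the member's own length, held for 9 members, the longest of them 25 nt in RABEP1 and TOP3B and 36 nt in CELF2. Of 396 members with matched introns on both sides, these 9 therefore stand where the builds themselves differ.

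In counts, 99, 98 and 139 of 451 members were called by abundance in R625H, K666T and K700E against WT. A call needed an adjusted p under 0.05 by Fisher's exact test and a 2-fold ratio. These are 22.0, 21.7 and 30.8% of members, beside 5.71, 6.34 and 9.32% of all 225203 junctions tested. Between mutant libraries, 89 members were called in R625H against K666T, 135 in R625H against K700E and 146 in K666T against K700E, beside 4.09, 6.38 and 6.04% of all junctions. Most of these calls were of members missing from at least 1 library, which passed the read minimum through the libraries that list them and so had to differ.

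Among the 240 members listed in all 4 libraries, 4, 3 and 21 were called in R625H, K666T and K700E against WT. These are 1.67, 1.25 and 8.75%, beside 1.92, 2.43 and 5.48% of 207794 junctions listed in all 4. In K700E, 8 members were higher and 13 lower, beside 4.28% higher and 1.2% lower over all such junctions. In R625H against K666T 1 was called, in R625H against K700E 11 and in K666T against K700E 16, beside 0.614, 2.74 and 2.35% of all. The median log2 ratio of the 240 was 0.02, 0.06 and -0.04 in R625H, K666T and K700E against WT, beside 0.01, 0.04 and 0.01 over all junctions listed in all 4.

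The test against the neighbouring canonical junction takes out the level of the gene only where both lie in the same gene, which was not checked. By this test, 71, 76 and 108 of 428 members with a neighbour were called in R625H, K666T and K700E against WT. The same call fell on 4.55, 4.93 and 6.75% of all junctions. Among members listed in all 4 libraries, 7, 8 and 17 of 227 were called, beside 1.1, 1.36 and 3.1% of all. With the p-values adjusted over junctions listed in all 4 libraries alone, the counts were 3, 6 and 17.

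**Figure D4:**
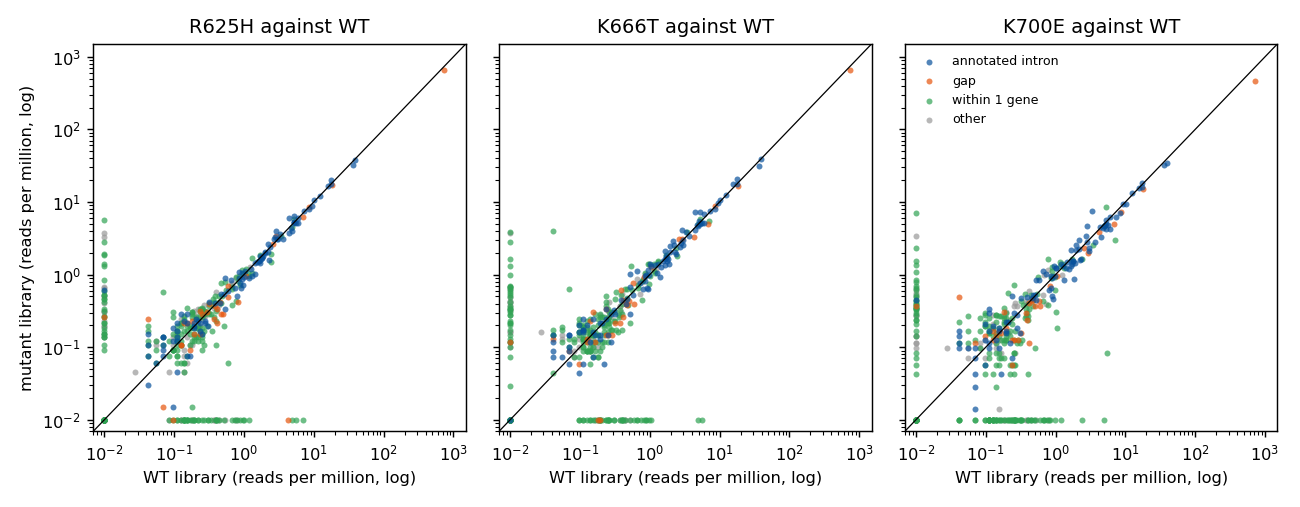
Unique reads as RPM for each member in a mutant library (y axis) against WT (x axis), both on log scales, coloured by class; the line marks equality and points at 0.01 had no unique read in that library. Most annotated introns lie near the line, and the points along the lower and left edges are mostly unannotated skips within 1 gene.

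The 21 members listed everywhere and called in K700E against WT were singled out after their values were seen. PSRC1, a microtubule-associated protein, was the most read of them, at chr1:109825359-109825684. It had 236, 262 and 528 reads in R625H, K666T and K700E and 237 in WT, and K700E stood apart. The ratio in K700E was 2.26 times WT (95% interval 1.93 to 2.64, adjusted p = 1.74e-25, Fisher's exact test). Its neighbouring canonical junction had 547, 601 and 951 reads in the mutant libraries and 569 in WT, and the intron's log2 odds ratio was 0.41 (adjusted p = 0.022, Fisher's exact test). Both ends of this intron lie within 10 nt of those of a canonical junction.

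IDH3B, a subunit of mitochondrial isocitrate dehydrogenase, fell in K700E on its GG-AG intron. It had 110, 114 and 61 reads in R625H, K666T and K700E and 131 in WT, 0.472 times WT in K700E (95% interval 0.342 to 0.644, adjusted p = 8.14e-06, Fisher's exact test). Its neighbour had 4103, 4164 and 4420 reads in the mutant libraries and 4332 in WT, and the log2 odds ratio was -1.13 (adjusted p = 5.32e-06, Fisher's exact test).

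ELOF1, with the GTATC start, had 14, 17 and 24 reads in R625H, K666T and K700E and 8 in WT, an adjusted p of 0.0205 in K700E by Fisher's exact test. Its neighbour had 1723, 1775 and 2664 reads in the mutant libraries and 1716 in WT, and the log2 odds ratio of 0.89 was not called (adjusted p = 0.421, Fisher's exact test). DMBX1, a homeobox gene, had 14, 17 and 36 reads on its annotated intron in the mutant libraries and 17 in WT. These 4 were the annotated introns called in K700E among those listed in all 4 libraries; DMPK, not listed in WT, was called as well.

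Among unannotated skips, WDR13, a WD-repeat protein, had 61, 56 and 117 reads in R625H, K666T and K700E and 56 in WT on 303 nt inside 1 exon. It was called higher in K700E both by abundance, at 2.12 times WT (95% interval 1.53 to 2.96, adjusted p = 2.14e-05), and against its neighbour (log2 odds ratio 1.03, adjusted p = 0.00107), by Fisher's exact test. SIN3B, a transcriptional corepressor, had 17, 8 and 40 reads in the mutant libraries and 15 in WT. AGAP3 had 5, 3 and 16 reads in the mutant libraries and 3 in WT, and both genes were also called against their neighbours, with log2 odds ratios of 1.42 and 2.24. RSRC2, an arginine and serine rich protein, had 8, 12 and 19 reads in the mutant libraries and 4 in WT. Its neighbour had 1357, 1701 and 2829 reads in the mutant libraries and 1078 in WT.

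POGK, whose skip lies between 8 nt repeats, had 69, 66 and 22 reads in R625H, K666T and K700E and 72 in WT. K700E alone was low, at 0.31 times WT (95% interval 0.183 to 0.505, adjusted p = 2.94e-06, Fisher's exact test), with a neighbour at 421, 421 and 437 reads in the mutant libraries and 486 in WT. VIM, the intermediate filament vimentin, had 19, 18 and 4 reads in the mutant libraries and 19 in WT on 42 nt of coding exon. POGK and VIM were also called lower in K700E against their neighbours.

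EOLA1 had 7, 12 and 3 reads in R625H, K666T and K700E and 29 in WT, and EOLA2, a near-identical copy, had 20, 35 and 4 in the mutant libraries and 17 in WT. Both skips were 88 nt long, so the split of reads between the copies is uncertain. ACADSB, a branched-chain acyl-CoA dehydrogenase, had 13, 15 and 7 reads in the mutant libraries and 37 in WT on 30 nt. It was the one member listed everywhere that was called lower than WT in all 3 mutant libraries.

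The members of the 21 that follow had at most 70 reads in all. IRAK4, a kinase of Toll-like receptor signalling, had 9, 16 and 3 reads in the mutant libraries and 18 in WT. CAVIN1, a caveolar coat protein, had 8, 18 and 4 reads in the mutant libraries and 16 in WT. ATG14, an autophagy factor, had 9, 14 and 3 in the mutant libraries and 16 in WT. MAL2 had 14, 18 and 8 reads in the mutant libraries and 30 in WT on a 1 nt gap, one of the 9 members where the builds differ in length. ALG10 had 10, 10 and 4 reads on 20 nt in the mutant libraries and 17 in WT. A 20 nt gap outside matched genes (chr7:117823928-117823947) had 16, 9 and 35 reads in the mutant libraries and 3 in WT, and a skip of 533 nt (chr15:100889594-100890126) had 9, 9 and 1 in the mutant libraries and 11 in WT.

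**Figure D5:**
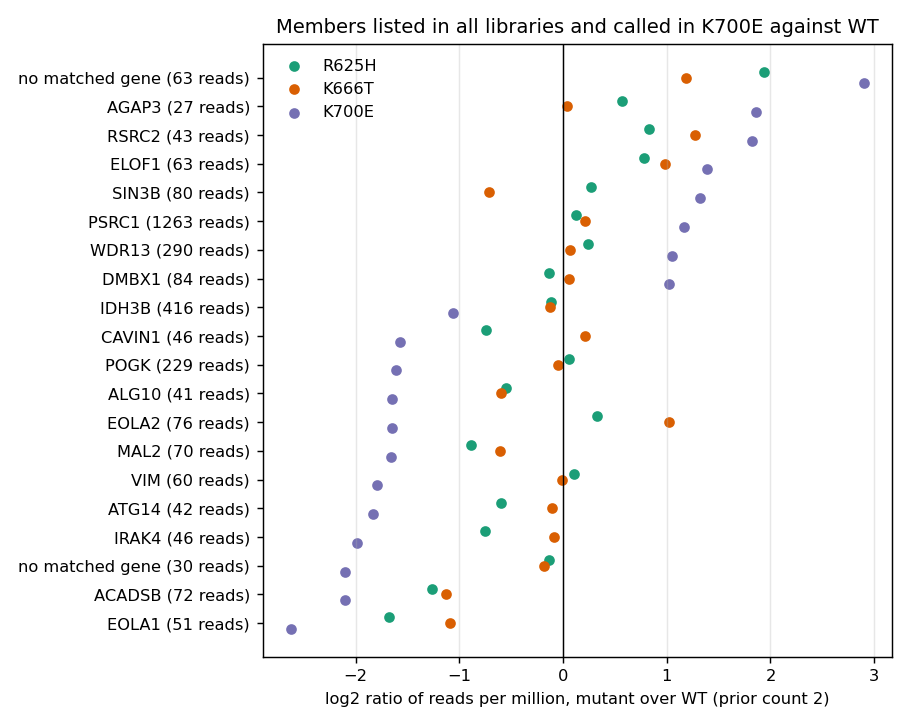
Log2 ratio of RPM, mutant library over WT with a prior count of 2 (x axis), for 20 of the 21 members listed in all 4 libraries and called in K700E against WT, with the reads summed over the 4 libraries in brackets. The K700E points lie at or beyond 1 or -1 by the choice of members; most R625H and K666T points lie between.

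Members missing from some libraries often lay near canonical junctions read in all of them. The values that follow describe members whose difference the read minimum and the naming rule built in. Of the 211 members missing from at least 1 library, 134 had a neighbouring canonical junction with at least 20 reads in every library. Of the 61 listed in 1 library only, 14, 17 and 17 were in R625H, K666T and K700E and 13 in WT, with a median of 34 reads, and 6 had at least 100.

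CALR, a calcium-binding chaperone, had 508 unique reads on its 30 nt skip in K700E and was not listed in R625H, K666T or WT. The neighbouring CALR junction had 8905, 9675 and 11522 reads in R625H, K666T and K700E and 8733 in WT, so the skip took 4.22% of the pair's reads in K700E (95% Wilson interval 3.88 to 4.6). Its longest overhang on one side of the join was 38 nt. CALR gene reads were 772, 779 and 804 CPM in the mutant libraries and 715 CPM in WT. A 48 nt skip that spans the 30 nt one (chr19:13054620-13054667) had 30 reads and was listed in R625H only. It was named after its values were seen.

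HMGA1, a chromatin architectural protein, had 368 reads on a 64 nt skip (chr6:34213282-34213345) in R625H only. Its neighbour had 2571, 2525 and 2466 reads in the mutant libraries and 2866 in WT. CD320, the transcobalamin receptor, had 266 reads on its 54 nt skip in K666T only, 22.35% of the pair's reads there (95% Wilson interval 20.08 to 24.81), with a neighbour at 821, 924 and 716 reads in the mutant libraries and 1116 in WT. HSP90AB1, a cytosolic chaperone, had 125 reads on a 552 nt skip that ends in 2 exons (chr6:44218316-44218867) in R625H only.

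EEF1A1, translation elongation factor 1 alpha, was read on different skips in different libraries. The 31 nt skip had 352 reads in WT and was not listed in any mutant library. A 49 nt skip overlapping it (chr6:74227844-74227892) had 67 reads in K666T only. A 63 nt skip elsewhere in the coding sequence had 21 and 21 reads in R625H and K666T and 20 in WT, and was not listed in K700E. Each was under 0.5% of the reads of the neighbouring junction, which had 106974, 98151 and 91883 reads in the mutant libraries and 117381 in WT.

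DDX5, an RNA helicase, had 11 and 272 reads on a 57 nt skip (chr17:62496050-62496106) in R625H and K666T and 3 in WT, and none in K700E. The neighbour had 5370, 5877 and 5996 reads in the mutant libraries and 5523 in WT. NAPA, a membrane fusion factor, had 79 and 13 reads on 54 nt (chr19:47991061-47991114) in R625H and K700E and 76 in WT, and none in K666T. AKAP1, a mitochondrial anchor for protein kinase A, had 54 reads on a 63 nt skip in R625H and 60 in WT, and none in K666T or K700E. JUN, a transcription factor subunit, had 48 and 79 reads on a 126 nt skip in R625H and K700E and 64 in WT, and none in K666T.

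Further skips were missing from a single library or from a pair of them. SCLY, a selenocysteine lyase, had 128 and 123 reads on 42 nt (chr2:239007201-239007242) in R625H and K666T and 175 in WT, and was not listed in K700E. DDX55, a helicase, had 93 and 109 reads on 32 nt in R625H and K700E only. EIF5A, a translation factor, had 88 and 97 reads in the same libraries on 1657 nt. SULT1A1, a sulfotransferase, had 90 reads on 140 nt in K700E and 64 in WT. MAGEA2, a cancer-testis antigen, had 72 reads on 124 nt in K666T and 86 in WT. STEAP1B had 373 and 216 reads on 297 nt (chr7:22550349-22550645) in K666T and K700E and 505 in WT, with 340 and 279 further multi-mapped reads in K666T and K700E and 372 in WT.

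WT lacked unique reads on 14 members that were read in all 3 mutant libraries. The count of members read everywhere but in 1 library was 21, 18 and 39 for R625H, K666T and K700E and 14 for WT. The most read of the 14 was a join of 678474 nt (chr22:20385740-21064213) whose ends lay in no single gene, with 248, 256 and 241 reads in R625H, K666T and K700E. RNF187, a ubiquitin ligase, had 188, 195 and 166 reads on 381 nt (chr1:228681950-228682330), and its neighbour had 2232, 2441 and 2398 reads in the mutant libraries and 2715 in WT. GABARAP, an autophagy protein, had 124, 113 and 20 reads on 46 nt (chr17:7144114-7144159), and SERBP1, an mRNA-binding protein, had 56, 90 and 21 on 227 nt. Conversely 13 members had unique reads in WT only, among them a 40 nt skip in RPS2P46 with 70 reads. A 38 nt skip in AL671762.1 (chr6:31797709-31797746) had 6 reads in K700E and 397 in WT.

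In 19 of the 211 members missing from a library, that library listed another junction with both ends within 10 nt. In 12 the other junction was canonical, and in 7 it was non-canonical. At chr1:145116308-145116327, a 20 nt gap had 227 and 274 reads in K666T and K700E and 306 in WT and none in R625H, while the junction that starts 1 base earlier (chr1:145116307-145116327) had 218 reads in R625H and none elsewhere. In ANKRD19P, a pseudogene, the member of 364 nt (chr9:95599476-95599839) had 51 and 43 reads in K666T and K700E and 71 in WT. A canonical junction of 367 nt that starts 1 base later had 51 reads in R625H and none elsewhere. For these 2 loci the difference between R625H and the others lies in which of the overlapping positions was listed.

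Other members had few or no neighbour reads in some libraries, which enter their odds ratios. The RPS2P46 gap was called higher than WT in every mutant library by the neighbour test, with a neighbour at 815 reads in WT and none in the mutant libraries. AL671762.1 was called higher in K700E by that test and lower by abundance, with a neighbour at 849 reads in WT and none in the mutant libraries. CHCHD3 had 21 reads on a 48 nt skip in R625H and 19 in WT, and its neighbour had 254 reads in WT only. TBC1D28 had 58 reads in K666T and 58 in WT on 48 nt, and its neighbour had 30, 33 and 38 reads in the mutant libraries and 0 in WT. For none of these does the odds ratio describe the skip alone.

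GNPNAT1, an enzyme of hexosamine synthesis, had 24 and 21 reads on 887 nt in R625H and K666T and 23 in WT, and none in K700E. Its neighbour had 94, 100 and 83 reads in the mutant libraries and none in WT. EIF5AL1, a copy of the EIF5A sequence, had 11 and 13 reads on 22 nt in R625H and K666T and 19 in WT. HAPSTR1 had 14 and 11 reads on 1943 nt in R625H and K666T and 9 in WT. Neither was read in K700E, where the neighbours had 21 and 39 reads, against none in the other libraries. GTPBP4, a nucleolar GTPase, had 10 and 5 reads on 385 nt in K666T and K700E and 11 in WT, and ZDHHC20, a palmitoyltransferase, had 46 and 17 reads on 397 nt in K666T and K700E only.

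Some skips were read in a single library. These were 80 nt in GCNT1 (chr9:79186716-79186795) with 78 reads in K700E and 88 nt in CPSF4 (chr7:99040642-99040729) with 41 reads in K666T. In WT, 54 nt in ARCN1 (chr11:118472844-118472897) and 37 nt in LINC00467 (chr1:211607177-211607213) had 29 reads each. CPSF4 held another skip (chr7:99054390-99054546) with 14, 15 and 4 reads in R625H, K666T and K700E and none in WT. A LINC00467 skip that starts 4 nt later (chr1:211607181-211607213) had 19 and 3 reads in K666T and K700E and none in WT. An overlapping one (chr1:211607154-211607192) had 2 and 25 unique reads in K666T and K700E and none in WT, although WT listed it. A join in no matched gene (chrX:47371293-47371363) had 27 reads in WT only, and another (chr4:49291757-49297909) had 44 and 40 reads in R625H and K700E only. The first 4 and both joins had neighbours at 0 reads in at least 1 library.

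Pooled over all code 0 junctions, the share of junction reads without a standard motif was 0.11595, 0.11791 and 0.09368% in R625H, K666T and K700E and 0.12371% in WT. The 95% Wilson intervals were 0.11513 to 0.11677, 0.1171 to 0.11872 and 0.09297 to 0.09439% in the mutant libraries and 0.1229 to 0.12453% in WT. The log2 ratios against WT were -0.09, -0.07 and -0.4 (two-sided Fisher's exact test, p = 1.55e-39 in R625H and 4.26e-23 in K666T, and below the smallest number the software can write in K700E). The single base of RPS2P46 carried most of this. Without it the shares were 0.04957, 0.05153 and 0.04768% in R625H, K666T and K700E and 0.05094% in WT. The log2 ratios were then -0.04, 0.02 and -0.1, with p = 0.00036, 0.125 and 1.54e-18 by Fisher's exact test, so that the direction in K666T turned round.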

How the data were processed

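The authors deposited raw counts of reads for each splice junction (unique and multi-mapped) and for each gene, 1 library per group. The submitters' processing notes name STAR 2.5.3a, HTSeq and the builds hg19 and GRCh37; settings and the annotation release are not known from them. A stranded mRNA kit and 100-bp paired reads are given per the labels' protocols. Unique junction reads ranged between 65923981 and 71959050 a library.

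Members and gene lists were chosen with earlier results of these data known. Junction reads were compared between libraries with two-sided Fisher's exact tests, against the library total (prior count 2 for ratios) or against the neighbour, the most read other canonical junction with an end within 1000 nt (0.5 added for odds ratios), with Benjamini-Hochberg adjustment over all junctions with at least 20 reads. A call needed adjusted p under 0.05 and a 2-fold ratio or odds ratio. Ratios printed with intervals have no prior count; intervals of ratios are exact and those of shares Wilson. The test was checked on simulated data. Gene counts were compared as CPM with a prior count of 10. Named members are the 15 most read, the 5 called with the highest and lowest values per comparison, XBP1, and those said to be singled out later; 1 called member is not reported here. Genes were placed from GENCODE 29: 16167 of 18243 coding genes that have 2 or more introns could be matched to the hg19 junctions. Tools were Python 3.11.15, scipy 1.17.1, statsmodels 0.14.6 and numba 0.67.0.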

Additional observations from a re-analysis of the deposited data

Results flagged for a closer look

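Members listed in all 4 libraries that were called against WT also differed between mutant libraries, by Fisher's exact test on the same reads with 1 library per group. In R625H against K700E the log2 ratio was -1.05 for PSRC1, 1.67 for POGK, -1.15 for DMBX1, -1.04 for SIN3B, 1.96 for EOLA2, 1.89 for VIM, -3.1 for EIF4H and 1.94 for the join at chr15:100889594. In K666T against K700E it was 1.55 for POGK, 1.23 for KLHL23, -2.03 for SIN3B, 2.67 for EOLA2, -1.71 for the gap at chr7:117823928, 1.78 for VIM, 1.89 for IRAK4, 1.78 for CAVIN1, -1.91 for EIF4H, 1.72 for ATG14 and -1.81 for AGAP3. EIF4H, a translation initiation factor, had 1, 5 and 25 reads in R625H, K666T and K700E and 13 in WT on its 843 nt skip. KLHL23 had 53, 91 and 39 reads in the mutant libraries and 39 in WT on its 29 nt skip.

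Outside the members, code 0 junctions of the mitochondrial genome had 68, 63 and 461 unique reads in R625H, K666T and K700E and 56 in WT. In K700E, 279 of them were on a single junction and 140 on another, neither read in R625H, K666T or WT. Mitochondrial junctions of other motifs had 91616, 65903 and 81524 reads in the mutant libraries and 75282 in WT.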

How the results depend on the processing

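No paired analysis was possible because each group has 1 library, and no library could be left out for the same reason. Depth limits members near 20 reads, where a few reads decide a call. Of 114 alternatives for 15 results, 94 kept the direction and the side of the threshold, or a count within 1.5 times. With a minimum of 50 reads, fewer junctions are tested, and 227 members remained, 221 of them with a neighbour. The abundance calls were then 35, 30 and 55 in R625H, K666T and K700E against WT. Between mutant libraries they were 30 in R625H against K666T, 43 in R625H against K700E and 53 in K666T against K700E. The neighbour calls were 28, 30 and 48. The share of all junctions called at that minimum was not computed. A further alternative, chosen after seeing the data, kept only junctions listed in all 4 libraries in the test and the adjustment. The abundance calls were then 4, 2, 20, 1, 9 and 16 of 240 members in the same order. The neighbour calls were 3, 6 and 17 of 227. The pooled log2 ratio of K666T against WT turned to 0.023 without the 5 most read junctions and to 0.017 without the RPS2P46 gap (chosen after seeing the data), against -0.069 with all; the cause was not tested. No listed gene reached 2-fold under any alternative.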
